A study of Mus musculus with 19 samples.

Results

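Il6ra, Il6st and Il27ra, which encode receptor chains for cytokines of the interleukin-6 (IL-6) family, were followed across mouse CD8 T lymphocytes before activation, after activation in culture and after transfer into hosts. The members were the genes with a probe set annotated to that symbol alone, and they made 3 of the 19938 genes measured. Each had 1 probe set (10499655 for Il6ra, 10407173 for Il6st and 10580061 for Il27ra). In the RefSeq annotation of GRCm38.p6, Il6ra lies on chromosome 3 from 89869324 to 89913196, Il6st on chromosome 13 from 112464070 to 112506860 and Il27ra on chromosome 8 from 84030286 to 84042600.

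The 19 arrays each measured RNA from purified CD8 T lymphocytes, in 6 groups. Stat5ca cells lacking T-bet, the transcription factor encoded by Tbx21, were recovered on days 14, 14 and 54 after transfer into congenic hosts (n = 3). Stat5ca cells, transduced with a constantly active form of the cytokine-activated factor Stat5, were recovered on day 20 (n = 4), and control cells without Stat5ca were recovered on days 18 and 120 (n = 2). In culture, Stat5ca cells described as GFP+ (n = 2) and control effector cells (n = 4) were taken after 72 h of activation, and naive peripheral cells (n = 4) were not activated. The 16 arrays other than the T-BetKO ones came from TCRP1A transgenic Rag-1-/- mice on a B10.D2 background, whose T cells share 1 transgenic receptor and which lack B cells of their own, and the activated cells among them met their cognate antigen. For the T-BetKO arrays the labels name C57BL/6 as strain and B10.D2 as background, and the series text names antibodies to CD3 and CD28 as their stimulus. They also had another labelling protocol. No transduction is named for the control cells, so active Stat5 and transduction cannot be told apart. Neither can T-bet loss and the stimulus, strain, labelling or day after transfer of the T-BetKO arrays. The transferred groups share no day, so active Stat5 after transfer and the day cannot be told apart either. Transferred cells came from host spleen and lymph nodes. Whether the arrays of 1 group stem from different mice or cultures is not stated, and the p-values cover only the spread among these arrays.

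IL-6 first binds its own receptor chain, IL-6 receptor alpha, encoded by Il6ra, and the pair then engages gp130, encoded by Il6st, which passes the signal through Janus kinases to STAT3. The protein gp130 is shared by the receptors for IL-11, leukaemia inhibitory factor, oncostatin M and other members of the family, whereas Il27ra encodes the chain that joins gp130 in the receptor for IL-27. In T cells, IL-6 is known for effects on survival and on helper differentiation, and IL-27 for inducing T-bet and interleukin-10. IL-6 receptor alpha can also be shed from the cell surface by metalloproteases of the ADAM family, and activated T cells are known to lose it.

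The 250 bases upstream of the annotated start of Il6ra and Il6st are shown because both genes were lower in Stat5ca than in control cells after transfer. They are RefSeq sequences of GRCm38.p6, written 5′ to 3′ on the strand of the gene, from chr3:89913197-89913446 (minus strand) for Il6ra and chr13:112463820-112464069 (plus strand) for Il6st, and they matched 2 of the 3 members by symbol. Capitals mark matches to any of 5 motifs searched on both strands.
Il6ra: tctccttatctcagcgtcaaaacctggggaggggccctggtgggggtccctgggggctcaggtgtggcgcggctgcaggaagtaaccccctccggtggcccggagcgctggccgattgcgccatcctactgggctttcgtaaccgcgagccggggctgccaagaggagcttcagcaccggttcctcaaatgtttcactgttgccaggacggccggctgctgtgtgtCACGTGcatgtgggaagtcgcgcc
Il6st: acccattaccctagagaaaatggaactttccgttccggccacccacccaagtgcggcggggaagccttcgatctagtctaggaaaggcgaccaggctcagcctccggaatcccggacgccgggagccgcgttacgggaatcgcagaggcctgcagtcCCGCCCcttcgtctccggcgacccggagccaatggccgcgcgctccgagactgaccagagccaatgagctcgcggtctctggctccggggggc
The capitals in Il6ra are an E-box, CACGTG, which begins 24 bases before the start, and 6.02% of all 32851 upstream windows of this length held one. The E-box was added to the motifs after these sequences were seen, so this share does not measure how unusual the match is. The capitals in Il6st are a GC box, GGGCGG, on the opposite strand, which begins 93 bases before the start, and 32.7% of windows held one. Neither window held the STAT motif TTCNNNGAA (in 7.02% of windows), the T-box motif AGGTGTGA (1.12%) or the FOXO motif GTAAACA (3.17%), which says only that these letters are not in these windows. Each window held 1 match, so no motifs overlapped. The windows were rich in G and C, with 65.2% in Il6ra and 66.0% in Il6st, above 83.0% and 84.5% of the windows.

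Signals are log2 values, so that a difference of 1 is 2-fold. Background was set at 7.32, below which 95% of the signals of 1196 olfactory and vomeronasal genes lay, and all 3 members were above it on every array. A probe set's brightness depends on its sequence, so levels are compared between groups and never between genes. As a check of the labels, Tbx21 stood at 8.18 to 8.34 in T-BetKO arrays, against 11.77 to 11.97 in transferred Stat5ca arrays. Stat5a stood at 10.86 to 11.06 in T-BetKO arrays and at 11.54 to 11.81 in transferred Stat5ca arrays, against 10.03 and 10.46 in transferred controls. It reached 12.12 in Stat5ca cells at 72 h, against 10.59 at most in controls. The CD8 genes Cd8a and Cd8b1 had group means between 12.36 and 13.57, and the mean of 10 T-cell markers was 11.83 to 12.38 in T-BetKO arrays, 12.44 to 12.47 in transferred Stat5ca arrays, 11.74 and 11.92 in transferred controls and 12.28 to 12.69 in the other arrays. The mean of 18 myeloid markers, genes of macrophages and related cells, was 10.70 to 12.16 in T-BetKO arrays, 9.68 to 10.54 in transferred Stat5ca arrays, 12.24 and 12.37 in transferred controls, 7.18 and 7.24 in Stat5ca cells at 72 h, 8.33 to 8.94 in controls at 72 h and 7.95 to 11.79 in naive arrays. All 18 markers were above background in some group. Naive arrays 34 and 36 stood apart from 33 and 35 on this list, with averages of 11.70 and 8.34. The mean of 7 neutrophil markers was 12.98 and 12.83 in arrays 34 and 36 and 7.09 and 7.75 in 33 and 35. It was 9.41 to 11.41 in T-BetKO arrays, 8.37 to 9.81 in transferred Stat5ca arrays and 12.09 and 12.24 in transferred controls. At 72 h it was 6.89 and 6.97 with Stat5ca and 7.70 to 8.33 in controls. The mean of 2 erythroid markers reached 12.07 in the day 120 control, against 8.03 in that of day 18 and at most 9.77 elsewhere. Of 8 B-cell markers, Ms4a1, Cd79a and Pax5 were under background in every group, while others such as Cd22 and Cd79b were above it in some. The mean of 3 NK-cell markers was 7.48 to 7.86 in T-BetKO arrays, 9.05 to 10.48 in transferred Stat5ca arrays, 7.32 and 7.61 in transferred controls, at most 6.11 in the arrays at 72 h and 6.38 to 8.09 in naive arrays. In such RNA, fewer cells that express a gene and less of its RNA per cell cannot be told apart.

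Il6ra, the IL-6-binding chain, varied most among the 3 genes. It measured 10.98, 10.88 and 11.11 in T-BetKO arrays 39, 40 and 41, 10.21, 10.24, 9.69 and 10.20 in transferred Stat5ca arrays 11 to 14, and 11.55 and 11.01 in the transferred controls of days 18 and 120. At 72 h it measured 8.53 and 8.97 in Stat5ca arrays and 8.11, 8.45, 8.37 and 8.09 in control arrays, while naive arrays 33 to 36 gave 11.72, 11.66, 11.62 and 11.63. The naive arrays were within 0.1 of each other, and every array at 72 h was lower than every array of the other groups. By group mean the order from the highest was naive (11.66 ± 0.04), transferred control (11.28 ± 0.39), T-BetKO (10.99 ± 0.11), transferred Stat5ca (10.08 ± 0.26), Stat5ca at 72 h (8.75 ± 0.31) and control at 72 h (8.26 ± 0.18), with errors as SD. Of the 5 pairs of neighbours in that order, T-BetKO over transferred Stat5ca and transferred Stat5ca over Stat5ca at 72 h passed an adjusted p of 0.05 (limma, Benjamini-Hochberg over all genes). The other neighbours differed by 0.38 ± 0.18, 0.29 ± 0.18 and 0.49 ± 0.18 (SE) and did not pass. Where neighbours are not among the comparisons below, the share of all genes called was 3.4% for T-BetKO against transferred control cells, 39.1% for T-BetKO cells against control cells at 72 h, 30.9% for T-BetKO cells against Stat5ca cells at 72 h, and 28.6% both for Stat5ca cells at 72 h and for transferred Stat5ca cells against naive cells.

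Il6st, the shared signalling chain gp130, had another order. It measured 10.46, 10.38 and 10.18 in T-BetKO arrays, 9.81, 9.95, 9.71 and 9.89 in transferred Stat5ca arrays, and 11.35 and 11.15 in transferred controls. At 72 h it measured 11.70 and 11.86 in Stat5ca arrays and 11.15, 11.77, 11.62 and 11.24 in control arrays, and naive arrays gave 12.40, 12.10, 12.52 and 12.10. Every array with Stat5ca after transfer, with or without T-bet, was lower than all 12 arrays of the other 4 groups. The order of means was naive (12.28 ± 0.22), Stat5ca at 72 h (11.78 ± 0.11), control at 72 h (11.44 ± 0.29), transferred control (11.25 ± 0.14), T-BetKO (10.34 ± 0.14) and transferred Stat5ca (9.84 ± 0.11). Stat5ca at 72 h did not differ from its neighbour, control at 72 h, beyond the spread (0.33 ± 0.16), nor did control at 72 h from transferred control (0.19 ± 0.16), while the other 3 pairs of neighbours passed. Stat5ca at 72 h against naive cells (-0.50) no longer passed with only those groups in the fit (adjusted p = 0.0632), with the floor at background (0.0611), with the Y-linked covariate (-0.30, adjusted p = 0.210), without naive arrays 33 and 35 (-0.32, adjusted p = 0.176), or without naive array 33, naive array 35 or either Stat5ca array (adjusted p = 0.0646, 0.0667, 0.219 and 0.0881). T-BetKO against transferred control cells (-0.91) did not pass with only those groups in the fit (adjusted p = 0.0845) or without the day 18 control (adjusted p = 0.0848). The 2 naive arrays with the higher myeloid level, 34 and 36, averaged 12.10, against 12.46 in arrays 33 and 35.

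Il27ra, the IL-27-binding chain, spanned the smallest range of the 3 genes. It measured 11.27, 11.04 and 11.76 in T-BetKO arrays, 11.88, 11.88, 11.89 and 11.87 in transferred Stat5ca arrays, and 11.73 and 11.58 in transferred controls. At 72 h it measured 11.48 and 11.13 in Stat5ca arrays and 11.39, 11.39, 11.43 and 11.38 in control arrays, and naive arrays gave 12.70, 12.20, 12.68 and 12.27. The naive arrays lay above all others, and the day 54 T-BetKO array lay above the day 14 ones. The order of means was naive (12.46 ± 0.26), transferred Stat5ca (11.88 ± 0.01), transferred control (11.66 ± 0.10), control at 72 h (11.40 ± 0.02), T-BetKO (11.36 ± 0.37) and Stat5ca at 72 h (11.31 ± 0.25). Among the 5 pairs of neighbours, only naive over transferred Stat5ca passed (0.58 ± 0.11, adjusted p = 0.00109). The naive arrays 34 and 36 averaged 12.23, against 12.69 in arrays 33 and 35.

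**Figure D1:**
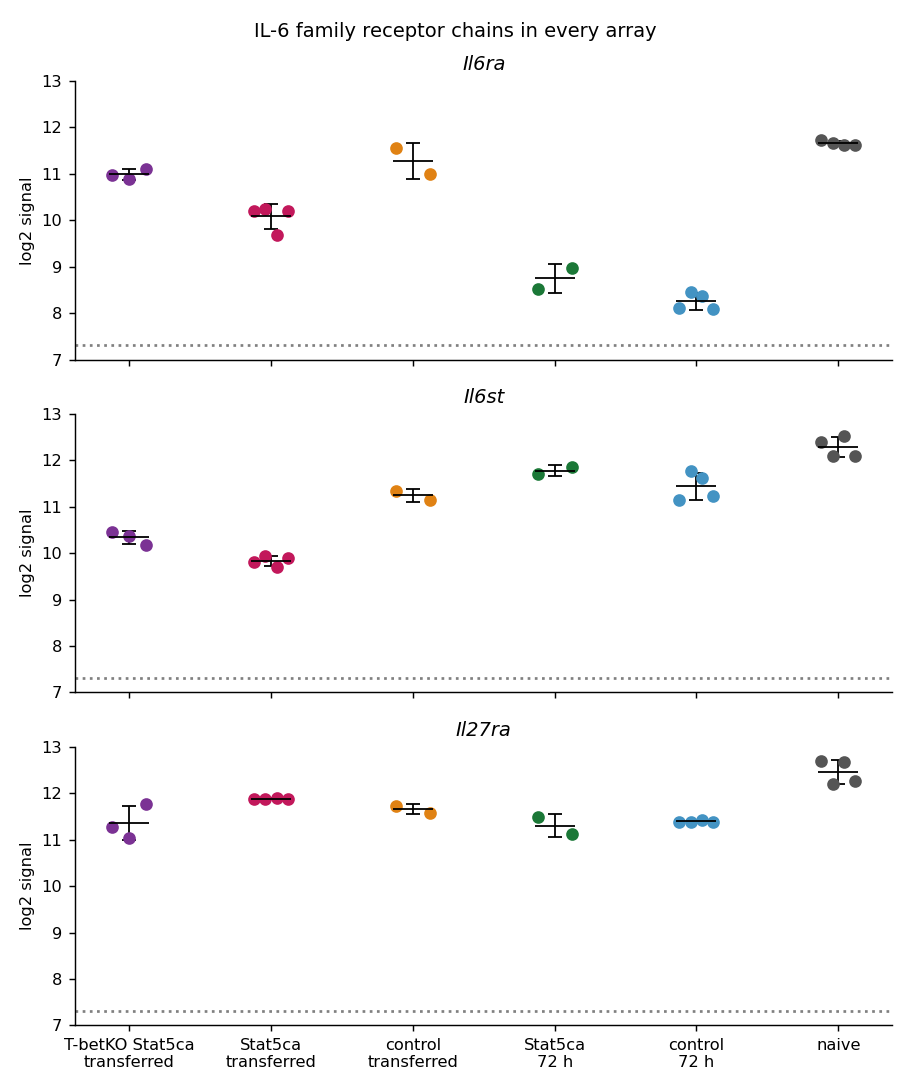
The log2 signal of Il6ra, Il6st and Il27ra in each of the 19 arrays (points), with the group mean and SD (bars) and the background of 7.32 (dotted line). Il6ra dips to between 8.09 and 8.97 in the arrays at 72 h, Il6st is lowest in transferred Stat5ca cells, and Il27ra is highest in naive cells.

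The first comparison set control effectors at 72 h beside naive cells, which asks what activation changed. All 3 receptor chains fell. Il6ra fell to 8.26 in effector cells, against 11.66 in naive cells, a change of -3.40 ± 0.15 on the log2 scale (SE, n = 4 each, adjusted p = 7.09e-10), or 10.6-fold lower. This change was larger in size than that of 99.8% of genes. Il27ra changed by -1.06 ± 0.11 (adjusted p = 2.16e-06) and Il6st by -0.84 ± 0.13 (adjusted p = 0.000159). Over all genes 24.9% were called lower in this comparison and 22% higher, so that a fall by itself was common. Of the 18 myeloid markers, 10 were called lower and 0 higher, of the 8 B-cell markers 4 were lower, and of the 3 NK-cell markers 2 were lower. Neutrophil markers were lower for 1 of 7 (median change -2.07), and Cd4 changed by -1.05. Without naive arrays 34 and 36, which had the higher myeloid level, Il6ra changed by -3.42, Il27ra by -1.29 and Il6st by -1.02, and without 33 and 35 by -3.39, -0.84 and -0.65.

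At 72 h, Stat5ca arrays (n = 2) were set beside control arrays (n = 4) to ask what active Stat5 adds during activation. Of the 3 genes, 0 passed in limma at an adjusted p of 0.05 and 1, Il6ra, had a 95% interval that left out 0, where 5.72% of all genes were called (2.37% higher, 3.35% lower). Il6ra measured 8.75 in Stat5ca cells and 8.26 in controls, a difference of 0.49 ± 0.18 (95% interval 0.11 to 0.87, adjusted p = 0.129). Il6st differed by 0.33 ± 0.16 (95% interval -0.02 to 0.69, adjusted p = 0.283) and Il27ra by -0.09 ± 0.13 (95% interval -0.38 to 0.20, adjusted p = 0.764). Without Stat5ca array 10 Il6ra differed by 0.27 (adjusted p = 0.693), and without array 9 by 0.71 (adjusted p = 0.119). With array weights Il6ra and Il6st passed (adjusted p = 0.0161 and 0.0120), and with the level of Y-linked genes as a covariate Il6ra did (adjusted p = 0.00750). Of the 18 myeloid markers 3 were called lower with Stat5ca (median change -1.04), and the T-helper marker Cd4 was higher by 1.02. With the myeloid level as a covariate Il6st differed by 0.18 (adjusted p = 0.605) and Il27ra by -0.26 (adjusted p = 0.162).

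Next, transferred control arrays (n = 2) were set beside the naive arrays (n = 4). Il6st and Il27ra were lower after transfer, while Il6ra was not called. Il6st measured 11.25 in transferred cells and 12.28 in naive cells, a change of -1.03 ± 0.16 (adjusted p = 0.00131). Il27ra measured 11.66 in transferred cells and 12.46 in naive cells, a change of -0.80 ± 0.13 (adjusted p = 0.00169). Il6ra changed by -0.38 ± 0.18 (95% interval -0.76 to 0.00, adjusted p = 0.147), and by -0.11 without the day 120 array and -0.65 without the day 18 array. Over all genes 9.81% were called lower and 7.94% higher. Of the 18 myeloid markers 5 were called higher in transferred cells (median change 2.49), and of the 7 neutrophil markers 0 were (median 2.45). Of the 10 T-cell markers 9 were lower, and of the 8 B-cell markers 3 were higher and 2 lower. Cd4 was higher by 1.20. When the myeloid level entered the model, Il6st changed by -0.78 (adjusted p = 0.0208) and Il27ra by -0.52 (adjusted p = 0.022). With these groups alone in the fit, Il27ra no longer passed (adjusted p = 0.0717).

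Against control cells at 72 h (n = 4), transferred control cells (n = 2) had more Il6ra, and the other chains did not pass. Il6ra measured 11.28 after transfer and 8.26 at 72 h, a rise of 3.02 ± 0.18 (adjusted p = 2.2e-08), or 8.14-fold, where 13.1% of all genes were called higher and 24.4% lower. Il6st differed by -0.19 ± 0.16 (95% interval -0.55 to 0.16, adjusted p = 0.419) and Il27ra by 0.26 ± 0.13 (95% interval -0.03 to 0.55, adjusted p = 0.158). This comparison and the one with naive cells share the transferred arrays. Of the 18 myeloid markers 15 were called higher after transfer and 0 lower, and the groups did not overlap in the mean of the myeloid list. Neutrophil markers were higher for 5 of 7 (median change 4.75), and Cd4 was higher by 2.25. Also higher were 3 of the 8 B-cell, 2 of the 3 NK-cell and 1 of the 2 erythroid markers, while 7 of the 10 T-cell markers were lower. The part of other cells in the rise of Il6ra was not tested. Il6ra changed by 3.01 with the myeloid level as a covariate, an adjustment that extrapolates between the groups. The covariate turned Il6st to 0.20 (adjusted p = 0.572) and raised Il27ra to 0.71 (adjusted p = 0.00305).

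**Figure D2:**
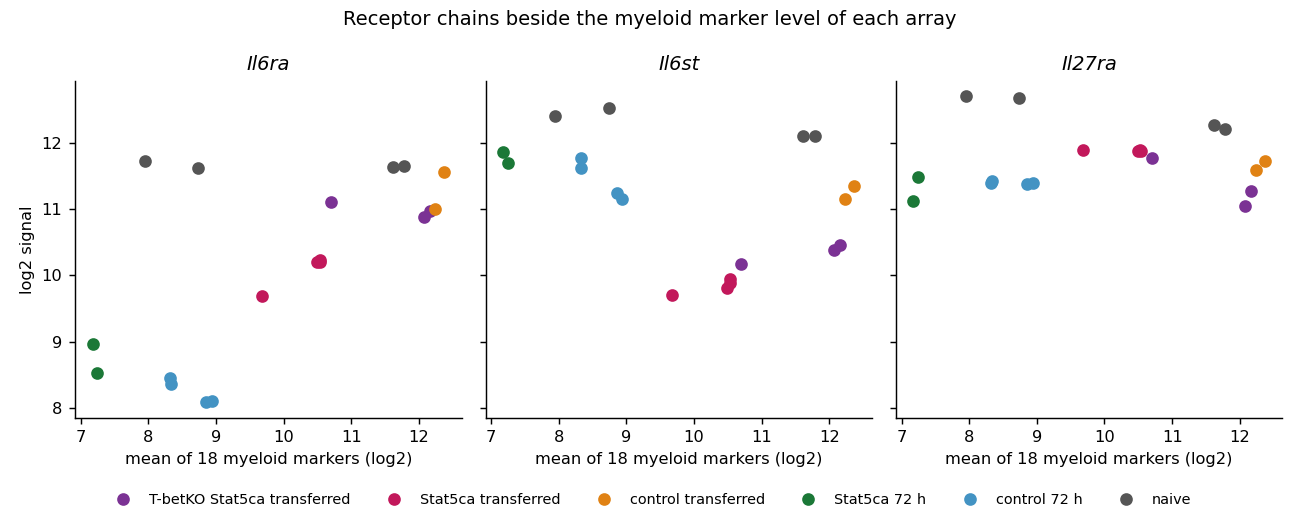
The log2 signal of each gene (vertical axis) against the mean log2 signal of 18 myeloid markers (horizontal axis) in every array, coloured by group. Naive arrays hold the same Il6ra signal at 7.95 and at 11.79 on the marker axis, and T-BetKO array 41 combines the lowest marker level of its group, 10.70, with the group's highest Il6ra signal, 11.11, whereas transferred Stat5ca array 13 has the lowest of both in its group, 9.68 and 9.69.

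Among transferred cells, Stat5ca arrays (n = 4) were set beside control arrays (n = 2), which asks what active Stat5 does in cells that persisted in hosts. Both chains of the IL-6 receptor were lower with Stat5ca and the IL-27 chain was not called. Il6st measured 9.84 in Stat5ca cells and 11.25 in controls, a change of -1.41 ± 0.16 (adjusted p = 5.55e-05), or 2.66-fold lower. Il6ra measured 10.08 in Stat5ca cells and 11.28 in controls, a change of -1.20 ± 0.18 (adjusted p = 0.00033), or 2.29-fold lower. Of all genes, 8.46% were called lower and 16.9% higher. Il27ra differed by 0.22 ± 0.13 (95% interval -0.06 to 0.51, adjusted p = 0.260). The change of Il6ra was -0.92 without the day 18 control and -1.47 without the day 120 control, and it passed in both. The myeloid level did not overlap between the groups, and 4 of the 18 markers were called lower with Stat5ca. Their median change was -2.11, and 14 of the 18 had an unadjusted p under 0.05 in limma. Of the 7 neutrophil markers 0 were called, with a median change of -3.05. Of the 10 T-cell markers 8 were higher with Stat5ca (median change 0.63), of the 3 NK-cell markers 2 were higher (median 3.34), of the 8 B-cell markers 3 were lower, and Cd4 changed by -1.23. With the myeloid level as a covariate Il6ra changed by -1.19 and Il6st by -1.62, both extrapolated, while Il27ra turned to -0.02. The covariate draws on differences within groups, which were widest among the naive arrays (7.95 to 11.79). There Il6ra differed by only -0.03 between arrays 34 and 36 and arrays 33 and 35. The adjustment therefore does not test other cells in the transferred arrays, and their part in these differences was not tested.

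Stat5ca cells after transfer (n = 4) were then compared with Stat5ca cells at 72 h (n = 2). Il6ra and Il27ra were higher after transfer, and Il6st was lower. Il6ra measured 10.08 after transfer and 8.75 at 72 h, a rise of 1.34 ± 0.18 (adjusted p = 8.35e-05). Il6st measured 9.84 after transfer and 11.78 at 72 h, a change of -1.94 ± 0.16 (adjusted p = 1.67e-06), or 3.83-fold lower. Il27ra rose by 0.57 ± 0.13 (adjusted p = 0.00618). Of all genes, 8.61% were called higher and 12.7% lower. Without Stat5ca array 10 at 72 h, Il27ra rose by 0.39 and no longer passed (adjusted p = 0.158). Of the 18 myeloid markers 12 and of the NK-cell markers 3 of 3 were called higher after transfer, and of the 10 T-cell markers 4 were lower. Neutrophil markers were higher for 1 of 7 (median change 2.32). With the myeloid level as a covariate Il27ra rose by 0.96.

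The effect of Stat5ca after transfer was set against its effect at 72 h in 1 model. For Il6ra the effect was more negative after transfer by -1.69 ± 0.25 (adjusted p = 0.000514), made of -1.20 after transfer and 0.49 at 72 h. For Il6st it was more negative by -1.75 ± 0.23 (adjusted p = 0.000248), made of -1.41 after transfer and 0.33 at 72 h. Il27ra differed by 0.32 ± 0.19 (95% interval -0.09 to 0.72, adjusted p = 0.309), by 0.14 without Stat5ca array 10 at 72 h and by 0.50 without array 9. The Stat5ca effect was also more positive after transfer for 2 of the 3 NK-cell markers and more negative for Cd4 (-2.25). Over all genes 5.48% had the more negative effect after transfer and 12.3% the more positive. Only the Stat5ca cells at 72 h are described as GFP+, so a change of the effect and that selection cannot be told apart.

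The last comparison set T-BetKO Stat5ca arrays (n = 3) beside transferred Stat5ca arrays with T-bet (n = 4). The IL-6 receptor chains were higher without T-bet and the IL-27 chain was lower. Il6ra measured 10.99 in T-BetKO cells and 10.08 in Stat5ca cells, a rise of 0.91 ± 0.15 (adjusted p = 0.000907), or 1.88-fold. Il6st measured 10.34 in T-BetKO cells and 9.84 in Stat5ca cells, a rise of 0.50 ± 0.14 (adjusted p = 0.0203). Il27ra measured 11.36 in T-BetKO cells and 11.88 in Stat5ca cells, a change of -0.52 ± 0.15 (adjusted p = 0.0211). Of all genes, 7.03% were called higher and 13.8% lower. Stat5a was also lower in T-BetKO cells, at 10.93 against 11.68 (-0.75 ± 0.11, adjusted p = 0.00033 in limma), and the part of its level was not tested. With 1 T-BetKO array, that of day 54, against the Stat5ca arrays, the lone array being assumed to vary like the others, Il6ra differed by 1.03 (adjusted p = 0.0269), Il6st by 0.34 (adjusted p = 0.437) and Il27ra by -0.11 (adjusted p = 0.805). With the RNA integrity number, which the labels give as 6 to 8 for T-BetKO arrays and 8 or 9 for Stat5ca arrays, as a covariate, Il6st and Il27ra no longer passed (adjusted p = 0.187 and 0.218). Of the 3 NK-cell markers 2 were lower without T-bet (median change -2.51), of the 10 T-cell markers 5 were lower and 1 higher, and of the 8 B-cell markers 3 were higher; their part was not tested. The myeloid list stood higher in each T-BetKO array than in any Stat5ca array, with a median change of 1.39 and 2 of 18 markers called. The 7 neutrophil markers had a median change of 1.37, with 0 called. With the myeloid level as a covariate Il6ra changed by 0.92, Il6st by 0.61 and Il27ra by -0.32 (adjusted p = 0.0813). The part of these cells was not tested. Without T-BetKO array 39 or 40, neither Il6st (adjusted p = 0.0862 and 0.0843) nor Il27ra (adjusted p = 0.0796 and 0.151) passed, and Il6st did not without Stat5ca array 13 (adjusted p = 0.0561).

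**Figure D3:**
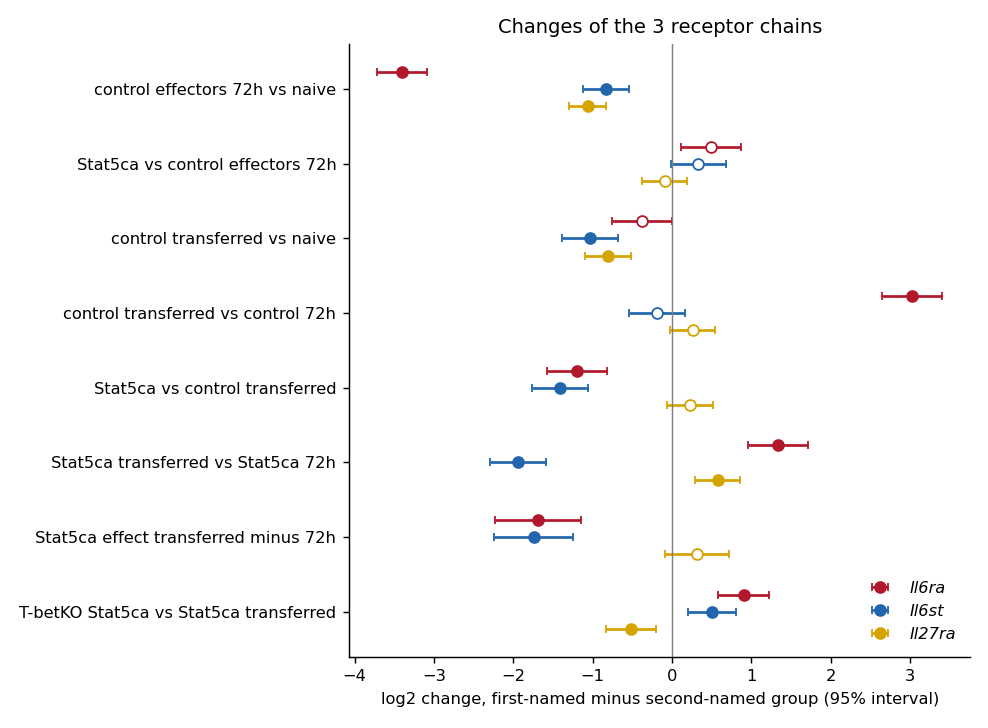
Log2 changes of Il6ra, Il6st and Il27ra in 8 comparisons, first-named minus second-named group, with 95% intervals from limma. Filled points passed an adjusted p of 0.05 over all genes. Il6ra runs from -3.40 in control effectors against naive cells to 3.02 in transferred control cells against control cells at 72 h, and Il27ra stays between -1.06 and 0.57.

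Other genes of the pathway were read from 6 lists by role, 52 genes in all, of which 47 were measured and 5 were not analysed here. In control effectors at 72 h against naive cells, 14 of the 47 were called higher and 13 lower, where 46.8% of all genes were called, and their median change was 0.01 against -0.09 over all genes. Il12rb2, the IL-12 receptor chain related to gp130, rose by 4.19 ± 0.21, and Stat3, the factor that gp130 activates, rose by 0.56 ± 0.09. Socs3, the inhibitor that binds gp130, changed by -1.73 ± 0.28. Adam10, a protease known to shed IL-6 receptor alpha, rose by 0.59 ± 0.07. Of the ligands, Clcf1 changed by -1.22 ± 0.10, while Il6 stood at 5.01 in effectors and 4.70 in naive cells, both under background.

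With Stat5ca at 72 h, 5 of the 47 pathway genes were called higher and 4 lower, against 5.72% of all genes. Lif, the ligand leukaemia inhibitory factor, rose by 1.16 ± 0.22, Socs3 by 1.52 ± 0.34, and the known STAT3 targets Pim1 and Bcl3 by 1.37 ± 0.25 and 0.97 ± 0.21. Whether STAT3 or the active Stat5 raised these genes was not tested. The sheddase genes Adam17 (-0.57 ± 0.16) and Adam10 (-0.41 ± 0.09) were lower. Without Stat5ca array 9 the count was 0 and without array 10 it was 1, so the count rested on both arrays. It was 20 with array weights and 15 with the Y-linked covariate.

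After transfer, 8 of the 47 were called higher and 13 lower with Stat5ca, where 25.4% of all genes were called, and the median change was 0.04 against 0.08 over all genes. The list of inhibitors held 4 genes called higher and 1 lower of 8, with Socs2 up by 3.16 ± 0.39, Cish by 2.79 ± 0.19 and Socs1 by 1.85 ± 0.20. Of these, Cish and Socs2 are known targets of STAT5 itself. Among the other receptor chains, Lifr, which pairs with gp130 for leukaemia inhibitory factor, lay under background with Stat5ca at 6.90, against 8.70 in controls, and was at least 2.61-fold lower, counting arrays under background as at background. Il12rb2 rose by 1.65 ± 0.26. Of 13 known STAT3 targets 5 were lower and 1 higher, including Maf (-2.43 ± 0.38) and Bcl6 (-1.19 ± 0.16). The ligand gene Ebi3, a subunit of IL-27, changed by -1.42 ± 0.46. Of the 5 JAK-STAT genes, limma called 0 at an adjusted p of 0.05 and 2 had an unadjusted p under 0.05. With the myeloid level as a covariate 15 of the 47 were called, with all 19 arrays in the fit 16, and with array weights 27. Leaving out either transferred control leaves 1 array in that group, and the count was lower in both cases.

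Without T-bet, 9 of the 47 pathway genes were called higher and 4 lower, where 20.8% of all genes were called. Il10, a gene that IL-27 can induce, averaged 7.74 in T-BetKO cells, with 2 of 3 arrays above background, against 5.65, under background, in Stat5ca cells, and was at least 1.34-fold higher (adjusted p = 0.00197). Maf rose by 2.04 ± 0.37. Il12rb2, known to be induced by T-bet, changed by -1.25 ± 0.23, and Socs1 by -0.51 ± 0.18. Rhbdf2, which governs the maturation of the sheddase ADAM17, rose by 0.87 ± 0.22. Without T-BetKO arrays 39 and 40 the count was 0, with the RNA integrity number as a covariate it was 1, with the myeloid level it was 7, without array 39 it was 4, and without array 40 it was 3. Without Stat5ca array 12 or 13 it was 8.

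Between transferred control cells and control cells at 72 h, 15 of the 47 were higher and 10 lower, where 37.5% of all genes were called. Lifr rose at least 2.61-fold, to 8.70 after transfer against 6.13, under background, at 72 h, and Socs3 rose by 1.47 ± 0.34. Stat3 changed by -0.74 ± 0.11 and Il12rb2 by -2.49 ± 0.26. Against naive cells, 14 were higher and 1 lower after transfer, where 17.7% of all genes were called, with Lifr at least 2.59-fold higher (6.94 in naive cells, 1 of 4 arrays above background), Maf up by 2.17 ± 0.38 and Osm, a ligand gene also made by myeloid cells, by 0.89 ± 0.29. With the myeloid level as a covariate the calls among the 47 were 13 against cells at 72 h and 7 against naive cells, and the naive comparison gave 3 with its groups alone in the fit and 8 without the day 120 array. In Stat5ca cells after transfer against Stat5ca cells at 72 h, 10 were higher and 8 lower, where 21.3% of all genes were called, with 11 called without array 9 at 72 h and 10 without array 10. The effect of Stat5ca differed between those times for 13 of the 47, 8 more positive and 5 more negative after transfer, where 17.8% of all genes differed, with Cish at 2.29 ± 0.28 and Socs1 at 1.11 ± 0.28. Without Stat5ca array 9 at 72 h that count was 8, and without naive arrays 33 and 35, which alter only the shared spread, it was 20.

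**Figure D4:**
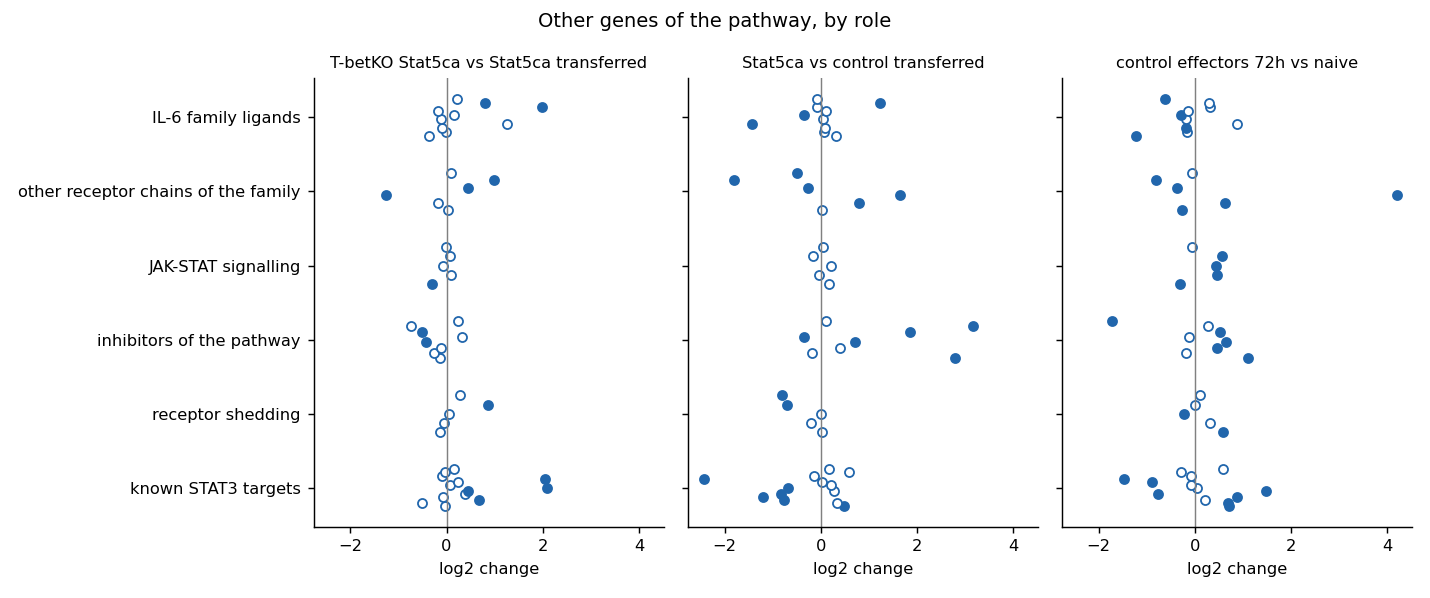
Log2 changes of 47 other genes of the pathway, grouped by role (rows), in T-betKO Stat5ca against Stat5ca cells after transfer, Stat5ca against control cells after transfer, and control effectors at 72 h against naive cells. Each point is a gene and filled points passed an adjusted p of 0.05. Members of a role lie on both sides of 0, and Il12rb2 at 4.19 is the largest rise.

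The genes most like each member were sought over the 19 arrays among 13754 others above background in at least 1 group. For Il6ra they were Vipr1 (Pearson r = 0.97), Ifit3 (0.97), Abcg1 (0.95), Susd6 (0.95) and Slfn5 (0.94), of which Vipr1 encodes a receptor for vasoactive intestinal peptide and Ifit3 is an interferon-stimulated gene. Ifit3 measured 9.85 in transferred Stat5ca cells, 10.89 in transferred controls, 7.31 in controls at 72 h and 11.71 in naive cells. For Il6st they were Cpm (0.95), Scmh1 (0.95), Zc3h12b (0.94), Zfp318 (0.92) and Msl3l2 (0.92). For Il27ra they were Samd9l (0.96), Ube2cbp (0.96), Orai2 (0.95), BC065397 (0.95) and Snapc4 (0.94). Of each 5, the 6 group means in place of the arrays kept 1 for Il6ra, 2 for Il6st and 1 for Il27ra. Between members, r was 0.07 for Il6ra and Il6st, 0.62 for Il6ra and Il27ra and 0.32 for Il6st and Il27ra. These values describe arrays that fall into 6 groups and share their preparation.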

How the data were processed

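RNA of mouse CD8 T lymphocytes (0.125 µg per array) was measured on 19 Affymetrix arrays. The authors deposited log2 signals for 35557 probe sets, made with Affymetrix Expression Console per the submitters' processing notes; version, summarization and normalization were not given in the sources used here. The log2 scale was read from the range, 3.13 to 14.9, with array medians of 7.69 to 7.89. Probe sets with 1 gene symbol (21789) gave 19938 genes, the brightest probe set standing for each; 1621 with several genes and 12147 with none were not used. Values were not normalized again.

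Differences were tested with lmFit and eBayes of limma 3.58.1 (R 4.3.3), with neither covariates nor blocks, since no numbering links arrays of different groups. The 16 TCRP1A arrays formed 1 fit, and comparisons with T-BetKO cells used all 19. A gene was called at an adjusted p under 0.05 (Benjamini-Hochberg over all genes of a comparison). The models were tested on simulated data. The number of arrays limits the precision. The members, lists and naming rule were chosen with earlier results of these data known. Named pathway genes were, per list and comparison, up to 4 called genes by size of change whose groups did not overlap; Il6 was named after its values were seen. The 5 genes most like a member were ranked by Pearson r. The E-box was added to the motifs after the upstream sequences were seen. Alternatives changed the arrays in the fit, the model of the spread, the scaling, the handling of dim genes and of several probe sets, array weights, a covariate (RNA integrity, myeloid or Y-linked level), a floor, a 2-fold minimum and the arrays left out. Tables and figures used Python 3.11.15, pandas 2.3.3, numpy 2.4.6 and matplotlib 3.10.9.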

Additional observations from a re-analysis of the deposited data

Results flagged for a closer look

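In transferred Stat5ca cells, Il6ra measured 9.69 in array 13, against 10.20 to 10.24 in the other 3 arrays of its group, a gap of 0.927 of the group's range, which exceeds Dixon's 95% limit for 4 arrays. Chance gives about 1 such array in 20 sets of 4, and 9 sets were checked, each gene in each group of 4 arrays. The genes share these arrays, so the sets are not separate. Array 13 also had the lowest myeloid marker level of its group, 9.68 against 10.49 to 10.54, and the part of that level was not tested.

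The effect of Stat5ca differed between the times by test for Il6ra, at -1.69 ± 0.25 after transfer minus at 72 h, and for Il6st, at -1.75 ± 0.23.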

How the results depend on the processing

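The 24 changes of the 3 genes in 8 comparisons were recomputed under the alternatives, giving 777 values, of which 747 kept the direction and the side of the threshold. Il6ra kept both in control cells at 72 h against naive cells (-3.50 to -3.24), in transferred against 72 h control cells (2.75 to 3.30), in Stat5ca against control cells after transfer (-1.47 to -0.92) and in the difference of the Stat5ca effects (-2.07 to -1.42), as did Il6st in the last 2 (-1.62 to -1.31 and -2.01 to -1.65). Where the cause of a change of call is not given by the setting itself, the cause was not tested. With only the groups compared in the fit, Il27ra lost its call in transferred control against naive cells (-0.80) and gained one against control cells at 72 h (0.26) and in Stat5ca against control cells after transfer (0.22); the value of 0.26 also passed without naive arrays 34 and 36 or without 33 and 35. Array weights brought Il6ra (0.58) and Il6st (0.49) past the threshold in Stat5ca against control cells at 72 h, and the Y-linked covariate did so for Il6ra (0.62). The myeloid covariate reversed Il6st (0.20) and raised Il27ra (0.71) in transferred against 72 h control cells, and reversed Il27ra in Stat5ca against control cells after transfer (-0.022). In T-BetKO against Stat5ca cells, Il27ra lost its call with that covariate (-0.32), with quantile normalization (-0.46), with RNA integrity (-0.42) and without arrays 39 and 40 (-0.11), and Il6st with RNA integrity (0.44) and without those arrays (0.34). Leaving out 1 array gave 0.44 to 0.58 for Il6st and -0.72 to -0.36 for Il27ra there, -0.27 to 0.088 for Il27ra in Stat5ca against control cells at 72 h, with the sign turned without Stat5ca array 10, and 0.39 to 0.75 for Il27ra in Stat5ca cells after transfer against 72 h. A 2-fold minimum removed the calls of Il6st at 72 h against naive cells (-0.84), of Il27ra in transferred control against naive cells (-0.80) and in Stat5ca cells after transfer against 72 h (0.57), and of all 3 genes in T-BetKO against Stat5ca cells (0.91, 0.50 and -0.52). In pairs outside the 8 comparisons, Il27ra in T-BetKO against control cells at 72 h turned to 0.030 (quantile), 0.11 (RNA integrity), 0.42 (myeloid) and 0.37 (without arrays 39 and 40), with -0.24 to 0.12 when 1 array was left out. Against Stat5ca cells at 72 h it turned to -0.092 with array weights and ran from -0.15 to 0.24 when 1 array was left out, and against transferred control cells it turned to 0.11 without arrays 39 and 40. Il6st in transferred control against Stat5ca cells at 72 h turned to 0.017 with the myeloid covariate. Counts of called genes moved most for Stat5ca against control cells at 72 h, 1140 genes, with 98 without Stat5ca array 10 and 4604 with array weights, and for transferred control against naive cells, 3538 genes, with 323 with only those groups in the fit and 5767 without naive arrays 34 and 36. In the other 6 comparisons the lowest and highest counts were 1425 and 9923 (9334 as reported), 2184 and 8726 (7476), 947 and 7351 (5058), 992 and 6790 (4243), 1121 and 6096 (3549), and 526 and 6870 (4155), in the order control cells at 72 h against naive, transferred against 72 h control, Stat5ca against control after transfer, Stat5ca after transfer against 72 h, the difference of the Stat5ca effects, and T-BetKO against Stat5ca cells. No paired analysis was possible because no number in the labels links arrays of different groups.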
